A study of Mus musculus with 8 samples.

Results

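The conjugating enzymes and carboxylesterases described here are 59 of the 18691 genes in the deposited files. They were chosen by symbol, with earlier results of these data known. They hold 16 UDP-glucuronosyltransferases (UGT, the Ugt1a, Ugt2a and Ugt2b genes) and 9 sulfotransferases (SULT). The 21 cytosolic and mitochondrial glutathione S-transferases (GST) are of the alpha, kappa, mu, omega, pi, theta and zeta classes. The 13 carboxylesterases (CES) are Ces1 to Ces5 genes without Ces1d and Ces1f. Polyadenylated RNA of epididymal white fat was sequenced in 4 libraries labelled Mrp4 knockout (Mrp4-/-; replicates 1, 2, 4 and 5) and 4 labelled wild type (WT; replicates 1, 2, 3 and 4). All were C57BL/6J mice aged 16 weeks, and no treatment is named. Mrp4 is an efflux transporter of the ABC family, encoded by Abcc4. The labels do not describe the knockout allele. They also do not state whether the 8 libraries come from 8 animals, and p-values below therefore reflect only how far libraries of a group differ among themselves.

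These enzymes make foreign and endogenous compounds more water-soluble or split them. UGTs sit in the endoplasmic reticulum and add glucuronic acid from UDP-glucuronic acid, SULTs add sulfate from the donor PAPS, and GSTs join glutathione to reactive electrophiles. Carboxylesterases are serine hydrolases that split esters of drugs and lipids. Liver is known for high levels of many UGTs and carboxylesterases, while Ces1d and Ces1f, left out of the 59, are carboxylesterases of adipocytes as well.

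The libraries held 14.1e6 to 14.7e6 expected counts each. Abcc4 itself stood at 3.6 ± 0.244 FPKM in libraries labelled Mrp4 knockout, no lower than the 3.52 ± 0.232 FPKM of WT (SD, n = 4 each; FPKM is fragments per kilobase of transcript, scaled to depth). Its log2 fold change was -0.05, with a 95% interval of 0.853 to 1.09 for the fold and an adjusted p of 0.692. The groups are therefore called by their labels. Adipocyte markers were high in both groups: the 10 genes of that list summed to 22321 to 28983 FPKM in libraries labelled Mrp4 knockout and 20527 to 25192 FPKM in WT. All 16 hepatocyte markers examined were called higher in libraries labelled Mrp4 knockout and none was at 0; they summed to 861, 1534, 1463 and 1168 FPKM in replicates 1, 2, 4 and 5 with that label, against 121, 49.4, 71.3 and 48.9 FPKM in WT replicates 1 to 4.

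At the Ugt1 locus and at Sult1d1 and Sult1e1 the calls differed between members, while all tested Ugt2 genes were called higher. The promoters of 9 members from these loci are shown. They are the 250 bases before the RefSeq start of each gene (GRCm38.p6), written 5′ to 3′ on the gene's own strand. In the sequences of Ugt1a1, Ugt1a9, Ugt1a6a, Ugt2a3 and Sult1d1, capitals mark GTTAAT or its reverse complement ATTAAC, the core of the recognition sequence of the liver-enriched factor HNF1. In Ugt2b5 and Ugt2b36 they mark the longest run of bases that both promoters share. The other promoters shown hold no match and have no capitals. The Ugt1 locus comes first, then the Ugt2 and Sult clusters.
Ugt1a1, chr1:88211709-88211958, plus strand: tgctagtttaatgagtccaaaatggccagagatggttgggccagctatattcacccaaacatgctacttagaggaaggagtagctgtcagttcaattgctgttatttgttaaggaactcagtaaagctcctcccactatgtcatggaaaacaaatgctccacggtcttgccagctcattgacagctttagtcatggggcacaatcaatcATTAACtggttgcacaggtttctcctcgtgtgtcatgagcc
Ugt1a9, chr1:88070529-88070778, plus strand: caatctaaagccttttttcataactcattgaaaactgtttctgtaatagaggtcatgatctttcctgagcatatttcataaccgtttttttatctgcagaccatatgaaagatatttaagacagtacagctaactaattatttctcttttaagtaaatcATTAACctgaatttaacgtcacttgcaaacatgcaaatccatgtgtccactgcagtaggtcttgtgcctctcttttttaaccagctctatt
Ugt1a6a, chr1:88134559-88134808, plus strand: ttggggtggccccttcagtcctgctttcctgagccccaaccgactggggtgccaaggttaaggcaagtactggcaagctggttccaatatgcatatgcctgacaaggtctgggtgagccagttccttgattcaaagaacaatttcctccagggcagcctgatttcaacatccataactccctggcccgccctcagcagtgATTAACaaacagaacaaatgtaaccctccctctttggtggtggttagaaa
Ugt1a7c, chr1:88094751-88095000, plus strand: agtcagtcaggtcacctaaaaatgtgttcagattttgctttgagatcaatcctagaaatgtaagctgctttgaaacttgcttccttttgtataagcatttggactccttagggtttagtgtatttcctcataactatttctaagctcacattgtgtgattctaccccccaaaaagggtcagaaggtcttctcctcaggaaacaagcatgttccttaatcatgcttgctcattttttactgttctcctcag
Ugt2a3, chr5:87337196-87337445, minus strand: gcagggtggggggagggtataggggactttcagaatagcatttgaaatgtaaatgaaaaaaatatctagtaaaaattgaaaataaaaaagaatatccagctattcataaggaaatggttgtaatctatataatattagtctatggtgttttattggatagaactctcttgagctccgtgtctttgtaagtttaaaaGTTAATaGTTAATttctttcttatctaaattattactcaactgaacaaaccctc
Ugt2b36, chr5:87092556-87092805, minus strand: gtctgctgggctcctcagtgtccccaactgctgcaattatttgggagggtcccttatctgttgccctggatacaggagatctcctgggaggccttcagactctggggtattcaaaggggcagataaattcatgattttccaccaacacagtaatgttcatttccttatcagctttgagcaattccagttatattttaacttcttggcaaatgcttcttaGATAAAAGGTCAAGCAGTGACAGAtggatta
Ugt2b5, chr5:87140341-87140590, minus strand: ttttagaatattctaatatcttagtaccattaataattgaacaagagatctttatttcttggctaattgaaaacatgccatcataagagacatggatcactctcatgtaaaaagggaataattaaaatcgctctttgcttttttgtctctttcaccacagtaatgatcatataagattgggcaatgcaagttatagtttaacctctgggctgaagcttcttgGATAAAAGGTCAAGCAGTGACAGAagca
Sult1d1, chr5:87569007-87569256, minus strand: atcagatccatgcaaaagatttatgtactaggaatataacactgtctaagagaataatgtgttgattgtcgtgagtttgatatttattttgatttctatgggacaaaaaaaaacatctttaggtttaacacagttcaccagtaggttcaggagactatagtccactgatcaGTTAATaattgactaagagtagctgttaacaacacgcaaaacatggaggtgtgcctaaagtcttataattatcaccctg
Sult1e1, chr5:87591612-87591861, minus strand: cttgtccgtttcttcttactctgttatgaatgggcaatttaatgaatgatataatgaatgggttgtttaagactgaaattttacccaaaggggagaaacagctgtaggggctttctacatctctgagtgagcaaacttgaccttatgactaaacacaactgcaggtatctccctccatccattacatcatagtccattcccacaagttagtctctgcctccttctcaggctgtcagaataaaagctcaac

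Both strands of 64 such windows of 53 members and of 32851 windows of all genes were searched for GTTAAT, for CAAAGTCCA (a site of HNF4) and for TGACNNNGC (the core of the antioxidant response element). GTTAAT was in 9 of the 64 windows (14.1%) and in 6.43% of all windows. By call, it was in 5 of 15 windows of members called higher (Ces3b, Sult1d1, Ugt1a1, Ugt1a9 and Ugt2a3), in 1 of 4 windows of members called lower (Gsta3), in 2 of 26 windows of members that did not pass the test (Sult1a1 and Ugt1a6a), and in Ugt1a10, which was not tested. Of those called higher, Sult1d1, Ugt1a9 and Ugt2a3 passed the filter on low counts with no WT library over it. The match lay 41 bases before the start in Ugt1a1, 91 in Ugt1a9, 50 in Ugt1a6a and 79 in Sult1d1, and Ugt2a3 had a pair of matches, 54 and 47 bases before its start. Among these promoters on show Ugt1a6a did not pass the test and the others were called higher, while Ugt2b5 and Ugt2b36 were called higher without a match. The run shared by Ugt2b5 and Ugt2b36 is 24 bases long and lies 28 to 5 bases before the start of Ugt2b5 and 31 to 8 bases before that of Ugt2b36. CAAAGTCCA was in 0 of the 64 windows and in 0.384% of all windows, and TGACNNNGC in 3 of the 64 (4.69%; Gsta3, Gstm5 and Gstm7) and in 10.2% of all windows. The matches of GTTAAT and TGACNNNGC in Gsta3 do not overlap.

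Of the 59 members, 41 had enough counts to be tested and 18 were removed by the filter on low counts. In libraries labelled Mrp4 knockout 17 members were called higher and 4 lower at an adjusted p under 0.05, and 20 did not pass. Over all 14257 genes tested 18.3% were called, 10.2% higher and 8.05% lower. The higher members were 9 UGTs, 7 carboxylesterases and 1 sulfotransferase (Sult1d1), and no GST was among them. The lower members were Gsta3, Gstp2, Sult1e1 and Ces2g. Of the 17 higher members, 9 passed the filter only through the libraries labelled Mrp4 knockout, since no WT library was over it, so their calls are no count over all members. The FPKM ranges of the groups did not overlap for 18 tested members with the Mrp4 knockout label above WT and for 3 below it, while over all genes tested those shares were 16.4% and 7.08%. The median log2 fold change was 3.25 over the tested UGTs, -0.00046 over the GSTs, -0.09 over the SULTs and 3.34 over the carboxylesterases, and -0.00297 over all genes. The members with no WT library over the filter were 4 of the tested UGTs, 1 of the SULTs and 4 of the carboxylesterases. They enter these medians and the 18 members without overlap, so neither is an even comparison with all genes. Because this is bulk RNA, more cells of a type and more RNA per cell cannot be told apart.

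**Figure D1:**
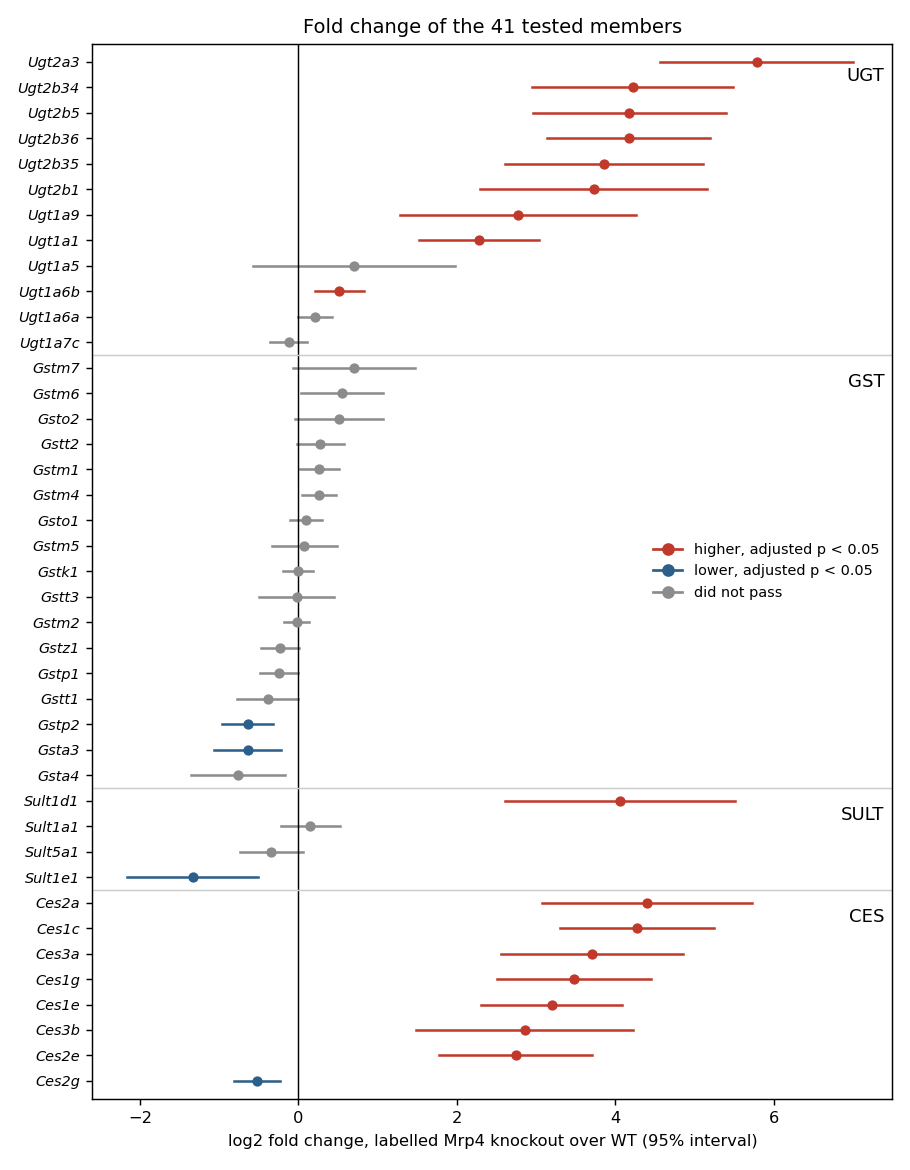
Log2 fold change (libraries labelled Mrp4 knockout over WT; points) with its 95% interval (bars) for the 41 tested members, by family, coloured by the edgeR call. The UGT and CES panels hold most of the higher calls, the 17 GSTs lie near 0 with 2 lower, and the SULT panel holds 1 call in each direction; the Ugt2a3 value rests on 3 counts in WT.

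The calls differed with the level in WT fat. Of the 23 members that averaged 1 FPKM or more in WT, 1 was called higher (Ugt1a6b), 4 lower and 18 did not pass. Of the 36 members under 1 FPKM in WT, 16 were called higher, 0 lower, 2 did not pass and 18 were not tested. This division was chosen after the values were seen, and a gene near 0 in WT can hardly be called lower.

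The 8 UGT2 genes were near absent from WT fat, and the 6 tested were called higher (Ugt2a3, Ugt2b1, Ugt2b5, Ugt2b34, Ugt2b35 and Ugt2b36). Ugt2b37 and Ugt2b38 were not tested: Ugt2b37 reached at most 0.04 FPKM in either group, and Ugt2b38 had 0, 0.04, 0.16 and 0.08 FPKM in libraries labelled Mrp4 knockout and 0.04, 0, 0 and 0 FPKM in WT. UGT2B enzymes are known for conjugating steroids and bile acids. Ugt2b5, the most abundant, had 3.79, 10.82, 9.84 and 4.13 FPKM in replicates 1, 2, 4 and 5 labelled Mrp4 knockout, against 0.70, 0.08, 0.44 and 0.26 FPKM in WT replicates 1 to 4. That is a mean of 7.15 ± 3.70 FPKM under the Mrp4 knockout label against 0.370 ± 0.265 FPKM in WT, a log2 fold change of 4.18 ± 0.54 (SE, adjusted p = 0.00184). The lowest library labelled Mrp4 knockout was above the highest WT library. Ugt2b36, its neighbour on chromosome 5, had 2.66, 5.34, 5.45 and 3.12 FPKM in libraries labelled Mrp4 knockout and 0.49, 0.11, 0.19 and 0.08 FPKM in WT (log2 fold change 4.17 ± 0.46 SE, adjusted p = 0.000717). Ugt2b34 had 1.31, 2.86, 2.81 and 1.30 FPKM under the Mrp4 knockout label and 0.09, 0, 0.23 and 0.09 FPKM in WT (log2 fold change 4.22 ± 0.57 SE, adjusted p = 0.00211). In each of these genes replicates 2 and 4 stood above replicates 1 and 5 within the Mrp4 knockout label. Ugt2a3 had 1.03, 2.44, 2.07 and 1.17 FPKM in libraries labelled Mrp4 knockout and 0, 0.03, 0.03 and 0.03 FPKM in WT. Its counts summed to 202 under the Mrp4 knockout label and 3 in WT, a ratio of 67.3 with a counting interval of 22.7 to 329 (adjusted p = 0.000358). Ugt2b1 and Ugt2b35 had log2 fold changes of 3.73 ± 0.64 and 3.86 ± 0.56 (SE), with adjusted p of 0.00686 and 0.00267. Without WT replicate 3 the log2 fold change of Ugt2b34 was 4.94, and without WT replicate 1 that of Ugt2b36 was 4.93.

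The Ugt1 locus makes its enzymes from separate first exons joined to shared later exons, so reads over the shared part cannot be assigned to 1 gene. Of the 100-base windows of the GENCODE M21 transcripts, 71.4% in Ugt1a6a, 71.2% in Ugt1a6b, 57.2% in Ugt1a1, 58.5% in Ugt1a9 and 39.4% in Ugt1a7c were shared with the closest other member, and the division of expected counts among them is uncertain. Within this limit, Ugt1a1, Ugt1a9 and Ugt1a6b were called higher, and Ugt1a6a, Ugt1a7c and Ugt1a5 did not pass. Ugt1a1, the bilirubin-conjugating enzyme, had 1.23, 2.83, 1.76 and 1.53 FPKM in libraries labelled Mrp4 knockout and 0.44, 0.28, 0.49 and 0.20 FPKM in WT (log2 fold change 2.28 ± 0.34 SE, adjusted p = 0.00310). Ugt1a6b, a UGT1A6 form of the mouse and the most abundant UGT, had 51.30, 48.79, 51.73 and 54.11 FPKM in libraries labelled Mrp4 knockout and 27.14, 40.59, 42.41 and 27.86 FPKM in WT. Its groups did not overlap, and its log2 fold change was 0.52 ± 0.14 (SE, adjusted p = 0.0338). The call was lost, at log2 fold changes of 0.42 to 0.55, without any one of WT replicates 1 and 4 and replicates 1, 2, 4 and 5 labelled Mrp4 knockout. Ugt1a9 had a log2 fold change of 2.77 ± 0.67 (SE, adjusted p = 0.0233), which lost its call without WT replicate 4 (2.39) or replicate 5 labelled Mrp4 knockout (2.62) and was 4.20 without WT replicate 1. Ugt1a6a averaged 20.5 ± 2.35 FPKM in libraries labelled Mrp4 knockout and 16.9 ± 1.39 FPKM in WT (adjusted p = 0.141), and Ugt1a7c 13.2 ± 1.89 FPKM under the Mrp4 knockout label and 13.7 ± 0.730 FPKM in WT (adjusted p = 0.432).

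**Figure D2:**
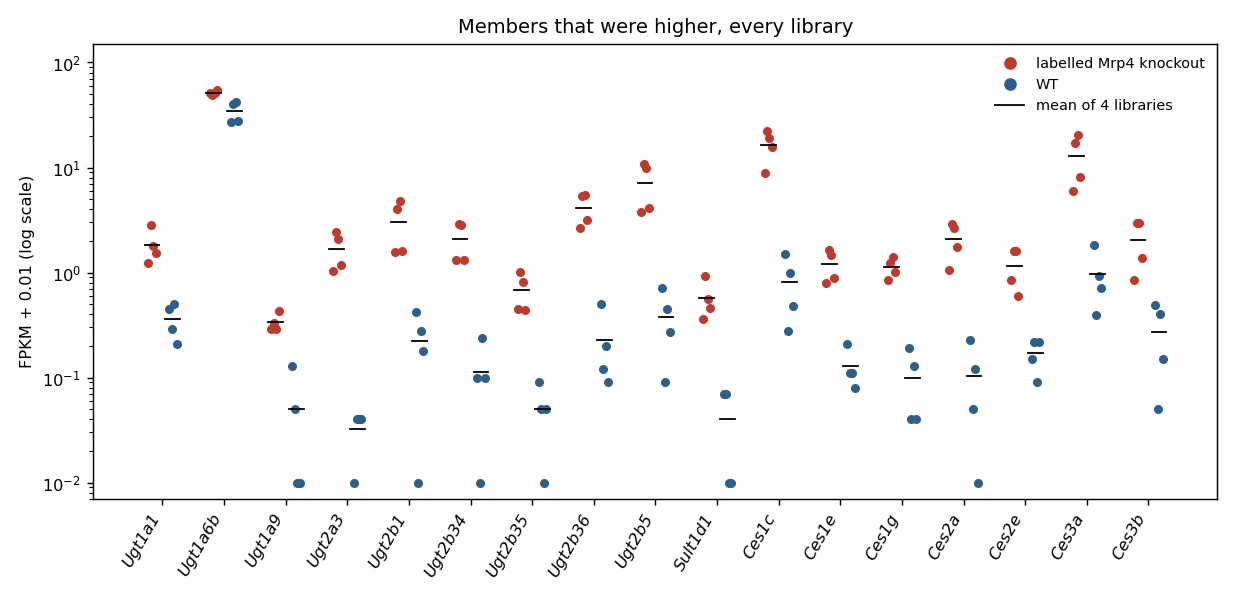
FPKM + 0.01 by library (log axis) for the 17 members called higher, libraries labelled Mrp4 knockout at the left of each pair and WT at the right, with a line at each mean. For Ugt2b5 the values run from 3.79 to 10.82 FPKM under the Mrp4 knockout label and from 0.08 to 0.70 FPKM in WT.

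Carboxylesterases were the other family called higher. All 8 tested members were called, 7 higher (Ces1c, Ces1e, Ces1g, Ces2a, Ces2e, Ces3a and Ces3b) and Ces2g lower, and 5 were not tested. Ces1c, a secreted carboxylesterase of mouse plasma, had 8.87, 22.07, 19.29 and 15.59 FPKM in libraries labelled Mrp4 knockout and 1.49, 0.27, 0.99 and 0.47 FPKM in WT. The means were 16.5 ± 5.71 FPKM under the Mrp4 knockout label and 0.805 ± 0.548 FPKM in WT, a log2 fold change of 4.28 ± 0.43 (SE, adjusted p = 0.000513), and the groups were far apart. Ces1e had 0.78, 1.62, 1.45 and 0.88 FPKM in libraries labelled Mrp4 knockout and 0.20, 0.10, 0.10 and 0.07 FPKM in WT (log2 fold change 3.20 ± 0.40 SE, adjusted p = 0.00130). Ces1g, which is known to act on lipid esters in mouse liver, had 0.83, 1.22, 1.4 and 1.01 FPKM under the Mrp4 knockout label and 0.18, 0.03, 0.12 and 0.03 FPKM in WT (log2 fold change 3.47 ± 0.43 SE, adjusted p = 0.00130). Ces2a had 1.04, 2.88, 2.67 and 1.74 FPKM in libraries labelled Mrp4 knockout and 0.22, 0.04, 0.11 and 0 FPKM in WT (log2 fold change 4.40 ± 0.59 SE, adjusted p = 0.00203; 5.25 without WT replicate 1). None of these 4 genes had a WT library as high as a library labelled Mrp4 knockout. Ces3a averaged 12.9 ± 6.96 FPKM under the Mrp4 knockout label and 0.95 ± 0.608 FPKM in WT (log2 fold change 3.71 ± 0.51 SE, adjusted p = 0.00250). Ces3b and Ces2e had log2 fold changes of 2.86 ± 0.61 and 2.74 ± 0.43 (SE), with adjusted p of 0.0159 and 0.00417, and the call of Ces3b was lost without WT replicate 4 (2.65, adjusted p = 0.0508). Ces3a and Ces3b share 8.65% and 7.37% of their windows.

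Ces2g ran the other way. It was the most abundant carboxylesterase of WT among the members, with 4.68, 5.24, 5.25 and 3.51 FPKM in libraries labelled Mrp4 knockout and 6.99, 5.76, 6.60 and 6.29 FPKM in WT. The ranges did not overlap, and the log2 fold change was -0.52 ± 0.13 (SE, adjusted p = 0.0257). The call was lost without WT replicate 1 (-0.48), 3 (-0.51) or 4 (-0.53) and without replicate 1 labelled Mrp4 knockout (-0.52). Ces1d and Ces1f, carboxylesterases outside the 59 that lie among the Ces1 members in the GRCm38.p6 gene order, were called lower as well. Ces1d averaged 467 ± 12.5 FPKM in libraries labelled Mrp4 knockout and 549 ± 34.3 FPKM in WT (log2 fold change -0.30, adjusted p = 0.0308), and Ces1f 47.0 ± 6.76 FPKM under the Mrp4 knockout label and 67.3 ± 11.5 FPKM in WT (log2 fold change -0.58, adjusted p = 0.0289). Ces1d lost its call without WT replicate 3 or 4 or any one library labelled Mrp4 knockout (-0.31 to -0.29), with library size alone as the scaling and in limma on log2(FPKM + 1). Ces1f lost its call without WT replicate 1, 3 or 4 or without replicate 1, 2 or 4 labelled Mrp4 knockout (-0.60 to -0.49). Along chromosome 8, Ces1c, Ces1e and Ces1g were thus called higher and their neighbours Ces1d and Ces1f lower.

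Sulfotransferases held calls in both directions. Of 9 members 4 were tested. Sult1e1, the estrogen sulfotransferase, had 13.21, 33.77, 19.56 and 9.32 FPKM in libraries labelled Mrp4 knockout and 38.71, 35.74, 40.30 and 67.73 FPKM in WT. All libraries labelled Mrp4 knockout were below all WT libraries, with replicate 2 close to them, and the log2 fold change was -1.33 ± 0.37 (SE, adjusted p = 0.0360). The call was lost without WT replicate 1 (-1.41), 3 (-1.39) or 4 (-1.07), without replicate 1 (-1.19), 4 (-1.35) or 5 (-1.11) labelled Mrp4 knockout, and with no filter. Sult1d1, a sulfotransferase known in mouse for catecholamine substrates and the neighbour of Sult1e1 on chromosome 5, had 0.35, 0.92, 0.55 and 0.45 FPKM in libraries labelled Mrp4 knockout and 0.06, 0.06, 0 and 0 FPKM in WT (log2 fold change 4.06 ± 0.65 SE, adjusted p = 0.00449). Sult1a1, a phenol sulfotransferase and the most abundant member of the family, had 106.33, 90.25, 83.28 and 117.00 FPKM in libraries labelled Mrp4 knockout and 72.91, 73.82, 116.97 and 79.07 FPKM in WT. The groups overlapped, and the fold of 1.11 had a 95% interval of 0.856 to 1.44 (adjusted p = 0.55). Sult5a1 averaged 4.66 ± 0.904 FPKM under the Mrp4 knockout label and 5.64 ± 0.942 FPKM in WT (adjusted p = 0.203).

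The GSTs were by far the most abundant members and few of them passed the test. Of 21 members 17 were tested, 0 were called higher by edgeR, 2 were called lower and 15 did not pass. Gstm1, Gstm4 and Gstm6 were higher at an unadjusted p under 0.05, while DESeq2 and limma on log2(FPKM + 1) called 0 GSTs higher. Gstz1, the maleylacetoacetate isomerase of tyrosine breakdown and the GST with the highest level in WT, had 474.27, 421.68, 435.03 and 515.89 FPKM in libraries labelled Mrp4 knockout and 554.51, 464.29, 502.48 and 561.40 FPKM in WT (fold 0.849, 95% interval 0.719 to 1, adjusted p = 0.149). Gstp2, of the pi class, had 10.76, 7.49, 8.96 and 6.94 FPKM in libraries labelled Mrp4 knockout and 11.95, 14.25, 12.13 and 12.77 FPKM in WT. Its ranges did not overlap (log2 fold change -0.64 ± 0.14 SE, adjusted p = 0.0177), and its call held with any 1 library left out. It shares 54.6% of its windows with Gstp1, so the division of reads between them is uncertain; Gstp1 averaged 232 ± 30.7 FPKM under the Mrp4 knockout label and 265 ± 25.6 FPKM in WT (adjusted p = 0.139). Gsta3, of the alpha class, had 87.45, 103.61, 78.28 and 95.24 FPKM in libraries labelled Mrp4 knockout and 170.68, 87.50, 134.31 and 150.44 FPKM in WT, with WT replicate 2 inside the range of the other group. Its log2 fold change was -0.64 ± 0.19 (SE, adjusted p = 0.0449). The call was lost without WT replicate 1 (-0.51), 3 (-0.65) or 4 (-0.58), without any one library labelled Mrp4 knockout (-0.70 to -0.57), with library size alone, with no filter and in both limma fits on FPKM. Gsta4, which conjugates the lipid aldehyde 4-hydroxynonenal, had 16.35, 18.84, 13.89 and 21.36 FPKM under the Mrp4 knockout label and 45.19, 18.02, 24.54 and 26.59 FPKM in WT (log2 fold change -0.76 ± 0.27 SE, adjusted p = 0.0737). It passed the test without WT replicate 2 and in DESeq2.

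None of the 6 tested mu-class GSTs passed. Gstm4 had 20.97, 23.00, 22.94 and 20.65 FPKM in libraries labelled Mrp4 knockout and 16.23, 21.44, 16.33 and 16.16 FPKM in WT (log2 fold change 0.26 ± 0.09 SE, adjusted p = 0.0791), and it passed without WT replicate 2, with library size alone and in limma on log2(FPKM + 0.1). Gstm1 averaged 554 ± 53.5 FPKM under the Mrp4 knockout label and 442 ± 61.5 FPKM in WT (fold 1.20, 95% interval 1.01 to 1.43, adjusted p = 0.120). Gstm2, Gstm5, Gstm6 and Gstm7 had adjusted p of 0.852, 0.807, 0.123 and 0.174. The theta-class genes Gstt1, Gstt2 and Gstt3 had log2 fold changes of -0.39, 0.28 and -0.02, and Gsto1 and Gsto2, of the omega class, 0.10 and 0.51, none past the threshold. Gstk1, the mitochondrial kappa-class enzyme, averaged 46.2 ± 4.38 FPKM under the Mrp4 knockout label and 44.4 ± 2.45 FPKM in WT, with a 95% interval for the fold of 0.876 to 1.14. Without WT replicate 2, 6 GSTs were called, 2 higher and 4 lower, and the additions were Gsta4, Gstm4, Gstp1 and Gstt2. Without any one of the other WT libraries, or without replicate 1, 4 or 5 labelled Mrp4 knockout, 1 GST was called.

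**Figure D3:**
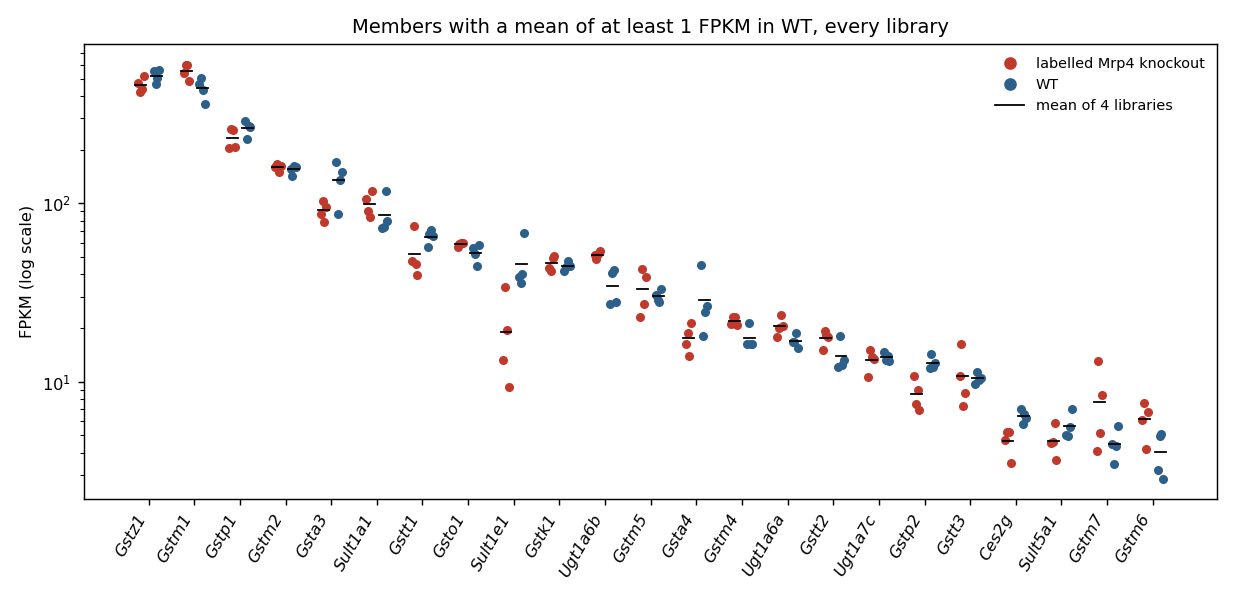
FPKM by library (log axis) for the 23 members that averaged 1 FPKM or more in WT, libraries labelled Mrp4 knockout left of WT, with a line at each mean. Sult1e1 lies between 9.32 and 33.77 FPKM under the Mrp4 knockout label and between 35.74 and 67.73 FPKM in WT, while the Sult1a1 and Gstz1 groups overlap.

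Summed over a family, the levels per library give the same split. The 8 Ugt2 genes summed to 10.8, 26.5, 26.0 and 11.8 FPKM in libraries labelled Mrp4 knockout and 1.81, 0.30, 1.16 and 0.67 FPKM in WT. The carboxylesterases summed to 24.5, 56.2, 56.6 and 33.8 FPKM under the Mrp4 knockout label and 12.1, 7, 9.81 and 8.39 FPKM in WT. In both families replicates 2 and 4 with the Mrp4 knockout label were the highest libraries. The Ugt1 genes summed to 81.5 to 91.4 FPKM under the Mrp4 knockout label and 56.7 to 75.9 FPKM in WT, with the groups apart. The GST sums, 1720 to 1874 FPKM in libraries labelled Mrp4 knockout and 1715 to 1930 FPKM in WT, and the SULT sums, 110 to 132 FPKM under the Mrp4 knockout label and 115 to 163 FPKM in WT, overlapped.

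**Figure D4:**
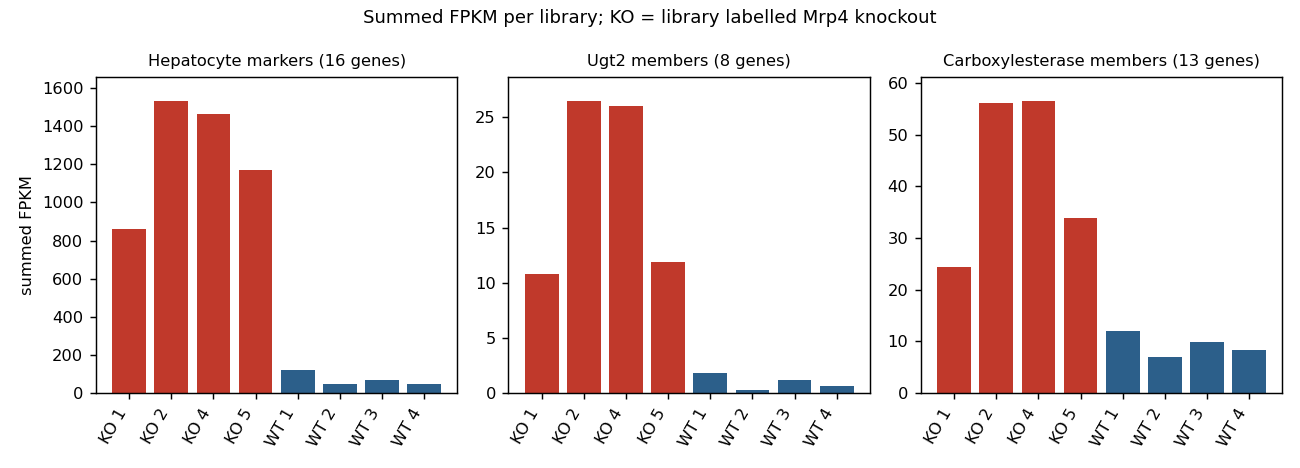
Summed FPKM (bars) of the 16 hepatocyte markers, the 8 Ugt2 members and the 13 carboxylesterase members in each library, libraries labelled Mrp4 knockout (KO) left of WT. Replicates 2 and 4 under the Mrp4 knockout label have the highest sums of Ugt2 genes (26.5 and 26.0 FPKM), of carboxylesterases (56.2 and 56.6 FPKM) and of hepatocyte markers (1534 and 1463 FPKM).

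Most higher members and the hepatocyte markers had the same libraries at the top. For 15 of the 17 higher members the top libraries with the Mrp4 knockout label were replicates 2 and 4, which also had the highest hepatocyte marker sums. For 11 of the 17, the highest WT library was replicate 1, which had the highest hepatocyte marker sum in WT. How many of all genes share either order was not counted, and members measured in the same libraries are not separate evidence. Since 9 of the 17 had no WT library over the filter, their order in WT rests on few counts. Albumin (Alb) itself averaged 467 ± 107 FPKM in libraries labelled Mrp4 knockout and 26.0 ± 9.75 FPKM in WT. As a percentage of the summed hepatocyte markers, 9 of the 14 higher members with a mean of at least 1 FPKM under the Mrp4 knockout label had overlapping ranges in the groups; Ces1c, for example, was 1.03% to 1.44% in libraries labelled Mrp4 knockout and 0.547% to 1.39% in WT. Ugt1a1, Ugt1a6b, Ces1e and Ces2e were lower in this ratio in every library labelled Mrp4 knockout than in any WT library, and Ugt2a3 was higher. For Ugt1a6b the ratio was 3.18% to 5.96% under the Mrp4 knockout label and 22.4% to 82.2% in WT. For several members the WT ratio rests on few counts: Ces2a had 6, 1, 3 and 0 counts in WT replicates 1 to 4, and Ugt2a3 0, 1, 1 and 1. These members were also picked because they were called higher, so overlap or separation of the ratios is not a test. The part of the hepatocyte markers in the differences was not tested. For other tissues that express such enzymes, 8 kidney markers summed to 2.76 to 5.50 FPKM in libraries labelled Mrp4 knockout and 3.82 to 7.49 FPKM in WT, which overlap. The 6 listed intestine markers summed to 12.9 to 16.0 FPKM under the Mrp4 knockout label and 10.3 to 15.7 FPKM in WT, of which Lgals4 gave 13 ± 2.02 FPKM under the Mrp4 knockout label and 13.2 ± 2.29 FPKM in WT. Of the other intestine markers, Vil1 was called higher, at 0.25 to 0.93 FPKM in libraries labelled Mrp4 knockout and 0.09 to 0.20 FPKM in WT (log2 fold change 1.80, adjusted p = 0.0265; 1.46 to 2.06 with 1 library left out, the call being lost without WT replicate 1, 3 or 4 or replicate 2 or 5 labelled Mrp4 knockout). Fabp2, not tested, had 0.31 to 1.69 FPKM under the Mrp4 knockout label and 0 to 0.15 FPKM in WT. The 7 listed epididymis markers summed to 0.96 to 3.37 FPKM under the Mrp4 knockout label and 5.50 to 18.4 FPKM in WT. Of these Cldn10 was called lower, at 1.81 ± 1.23 FPKM in libraries labelled Mrp4 knockout and 5.65 ± 1.19 FPKM in WT (log2 fold change -1.70, adjusted p = 0.0265; -2.09 to -1.42 with 1 library left out, the call being lost without replicate 5 labelled Mrp4 knockout and without WT replicate 1 or 4). Crisp1 had 13.47 FPKM in WT replicate 2 and at most 0.60 FPKM in any other library. The 8 listed macrophage markers summed to 816 to 1293 FPKM in libraries labelled Mrp4 knockout and 681 to 796 FPKM in WT, and the 7 listed mesothelial markers to 58.1 to 159 FPKM under the Mrp4 knockout label and 158 to 247 FPKM in WT; their part was not tested.

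By position in GRCm38.p6, 11 members lie on chromosome 5, of which 7 were called higher, 1 lower (Sult1e1) and 3 were not tested. Chromosome 8 holds 14 members, of which 7 were called higher, 1 lower (Ces2g), 1 did not pass (Sult5a1) and 5 were not tested. Over all genes tested 10.2% were called higher and 8.05% lower. Among the higher members, some passed the filter on low counts with no WT library over it. They were Ugt2a3, Ugt2b34, Ugt2b35 and Sult1d1 on chromosome 5, and Ces1e, Ces1g, Ces2a and Ces2e on chromosome 8. The order on chromosome 5 is Ugt2b34, Ugt2b1, Ugt2b35, Ugt2b36, Ugt2b5, Ugt2b37, Ugt2a3 and Ugt2b38, and, farther on, Sult1b1, Sult1d1 and Sult1e1. Higher and lower calls stood side by side at Sult1d1 and Sult1e1.

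Among the members removed by the filter, counts were low in both groups. Ces1b had 56 counts in libraries labelled Mrp4 knockout and 3 in WT, a ratio of 18.7 with a counting interval of 6.07 to 93.2. Sult1b1 had 18 counts under the Mrp4 knockout label and 0 in WT, a ratio of 6.00 against a floor of 3 counts over the WT group. Sult1c2 had 20 counts under the Mrp4 knockout label (1, 6, 5 and 8 by library) and 0 in WT, a ratio of 6.67 against the same floor. Both ratios take the counts under the Mrp4 knockout label as exact, so they are no lower bounds. With no filter, Ces1b, Ces2c, Gstm3, Sult1b1 and Sult1c2 were called higher, with adjusted p of 0.00552, 0.0267, 0.0304, 0.0147 and 0.0283.

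Another list held 26 genes of cofactor supply and glutathione turnover, of which 25 were tested. They make, move, recycle or break down the donors of these reactions, or split their products. Of the 25 tested, 4 were called higher, 3 lower and 18 did not pass (median log2 fold change 0.06), where 10.2% of all genes tested were called higher and 8.05% lower. Ggt6, among the higher genes, passed the filter on low counts with no WT library over it. Papss1, which makes the sulfate donor PAPS, had 18.56, 18.58, 16.88 and 16.35 FPKM in libraries labelled Mrp4 knockout and 23.67, 21.47, 23.33 and 21.32 FPKM in WT (log2 fold change -0.42, adjusted p = 0.00443). Bpnt1, which breaks down its spent form, averaged 30 ± 1.5 FPKM under the Mrp4 knockout label and 38.2 ± 2.31 FPKM in WT (log2 fold change -0.42, adjusted p = 0.00543). Both were lower in every library labelled Mrp4 knockout than in any WT library. Ugp2, which makes UDP-glucose, was called lower (log2 fold change -0.35, adjusted p = 0.0267), and lost its call without WT replicate 4 (-0.36) or replicate 1 (-0.33), 4 (-0.34) or 5 (-0.32) labelled Mrp4 knockout, with library size alone and in both limma fits. Gusb, the lysosomal β-glucuronidase, was called higher (log2 fold change 0.41, adjusted p = 0.0321), and lost its call without WT replicate 1 (0.36), 3 (0.43) or 4 (0.36) or replicate 1 (0.38) or 4 (0.33) labelled Mrp4 knockout.

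Of 27 other conjugating and detoxifying enzymes 24 were tested, 6 higher, 3 lower and 15 not passed (median log2 fold change -0.09). The shares over all genes tested were 10.2% higher and 8.05% lower. Akr1c6, a hydroxysteroid dehydrogenase of mouse liver, averaged 6.89 ± 1.94 FPKM in libraries labelled Mrp4 knockout and 0.188 ± 0.0914 FPKM in WT (log2 fold change 5.11, adjusted p = 0.000127). Glyat, which joins glycine to acyl-CoA, averaged 2.16 ± 0.871 FPKM under the Mrp4 knockout label and 0.0950 ± 0.0507 FPKM in WT (log2 fold change 4.33, adjusted p = 0.000580), and Ugt3a2, a UDP-glycosyltransferase, 3.83 ± 1.06 FPKM under the Mrp4 knockout label and 0.870 ± 0.269 FPKM in WT (log2 fold change 2.08, adjusted p = 0.00128). Acsm1, an acyl-CoA synthetase, had 0.86, 2.29, 1.91 and 1.14 FPKM in libraries labelled Mrp4 knockout, while in WT only replicate 1 had any, at 0.10 FPKM with 3 counts (adjusted p = 0.00150). Akr1c6, Glyat, Acsm1 and Ugt3a1, all called higher, passed the filter on low counts with no WT library over it. The counts and median of this list are therefore no even comparison with all genes.

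Of 25 other ester and lipid hydrolases listed in the files, Ces1d and Ces1f among them, 24 were tested, 6 higher, 5 lower and 13 not passed (median log2 fold change 0.03). Here too the shares over all genes tested were 10.2% higher and 8.05% lower. Aadac, an arylacetamide deacetylase of liver, averaged 4.49 ± 1.83 FPKM in libraries labelled Mrp4 knockout and 0.292 ± 0.0932 FPKM in WT (log2 fold change 3.85, adjusted p = 0.000476). Lipa, lysosomal acid lipase, averaged 47.1 ± 5.73 FPKM under the Mrp4 knockout label and 31.0 ± 2.03 FPKM in WT (log2 fold change 0.54, adjusted p = 0.00567). Lipc, hepatic lipase, under 1 FPKM in both groups, averaged 0.825 ± 0.269 FPKM in libraries labelled Mrp4 knockout and 0.0925 ± 0.0350 FPKM in WT (log2 fold change 3.04, adjusted p = 0.00198). Neither Aadac nor Lipc had a WT library over the filter on low counts, so both passed it only through libraries labelled Mrp4 knockout. Nceh1, a cholesteryl ester hydrolase, was higher as well (0.59 on the log2 scale, adjusted p = 0.00836). Pnpla3, a lipid-droplet acyl hydrolase, had 164, 146, 133 and 190.4 FPKM in libraries labelled Mrp4 knockout and 367, 207, 264 and 300.1 FPKM in WT (log2 fold change -0.91, adjusted p = 0.0133).

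Of 17 regulators of conjugation genes 12 were tested, 2 higher, 1 lower and 9 not passed (median log2 fold change -0.14). For all genes tested the shares were 10.2% higher and 8.05% lower. Hnf4a, a nuclear receptor of hepatocytes that is also one of the 16 markers above, had 1, 3.23, 2.72 and 2.21 FPKM in libraries labelled Mrp4 knockout and 0.19, 0.19, 0.19 and 0.21 FPKM in WT (log2 fold change 3.47, adjusted p = 0.000612). Nr1i3, the receptor CAR, which induces UGT and SULT genes in liver, averaged 1.4 ± 0.439 FPKM under the Mrp4 knockout label and 0.347 ± 0.0768 FPKM in WT (log2 fold change 1.98, adjusted p = 0.00414). No WT library was over the filter on low counts for Nr1i3, which passed it only through libraries labelled Mrp4 knockout. Cebpa, a factor of adipocytes and hepatocytes, averaged 369 ± 27.6 FPKM under the Mrp4 knockout label and 450 ± 43.8 FPKM in WT (log2 fold change -0.35, adjusted p = 0.0414), and lost its call without any 1 library other than WT replicate 2 (-0.40 to -0.29), with library size alone and in both limma fits. Keap1 (adjusted p = 0.0897) and Nfe2l2 (adjusted p = 0.145), the sensor and activator of the antioxidant response that controls many GST genes, had log2 fold changes of -0.16 and -0.19 and did not pass.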

How the data were processed

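Libraries of polyadenylated RNA were read on a BGISEQ-500 as pairs of 100-base reads, per the labels' protocols. The submitters' processing notes name mm9 and Bowtie2; which tool counted the reads is not stated there. For every gene of a library the authors deposited its length, an FPKM and an expected count, per the file headers. Of the expected counts 92% to 92.6% per library were whole, and 21 members had a fractional one in some library. A gene not listed in a library was taken as 0.

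The members and lists were chosen with earlier results of these data known. Rounded expected counts went into edgeR 4.0.16 (R 4.3.3): filterByExpr by genotype (0.687 CPM in at least 4 libraries; 4434 genes removed), TMM factors, the robust quasi-likelihood test, two-sided, with genotype alone, and Benjamini-Hochberg adjustment over 14257 genes at 0.05. The SE is the size of the log2 fold change divided by the square root of F, and intervals are 95% from the t distribution of the fit. Counting intervals cover counting error only, and the floors that of the WT counts alone, since reads carried no molecular identifiers. Strand use is not stated, so overlapping and antisense genes can share reads.

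All members that were called, or averaged 1 FPKM or more in a group, are named, 40 in all; up to 4 members per family with the lowest p, and the most abundant in WT, have values for each library, as do some others. In each list of other pathway genes up to 4 genes are named, those with the lowest p among the ones averaging 1 FPKM or more in a group. Ces1d, Ces1f, Lipc, Ggt6, Alb, single intestine and epididymis markers, Nfe2l2 and genes in the closing section were named in addition. Promoters are from the RefSeq table (GRCm38.p6) and shared windows from GENCODE M21 transcripts; both were matched by symbol or gene number, the windows for all 59 members. The fits were tested on simulated data. Alternatives were other scalings, filters and tools (DESeq2 1.42.0; limma 3.58.1 on log2 FPKM with pseudocounts of 1 and 0.1), a block for the replicate number, and each library left out.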

Additional observations from a re-analysis of the deposited data

Results flagged for a closer look

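In 80 groups of 4 libraries (each named member in each group), 5 held 1 library far from the other 3 by Dixon's 95% criterion, and chance alone marks about 1 in 20 groups. Gsto2 had 0.93 FPKM in replicate 1 labelled Mrp4 knockout, against 1.20 to 1.25 FPKM in the other libraries with that label. Sult1e1 had 67.73 FPKM in WT replicate 4 and 35.74 to 40.30 FPKM in the other WT libraries; without that replicate its log2 fold change was -1.07 and it was no longer called. Sult1a1 had 116.97 FPKM in WT replicate 3 and 72.91 to 79.07 FPKM in the others. Gstm4 had 21.44 FPKM in WT replicate 2 and 16.16 to 16.33 FPKM in the others, and it passed the test without that replicate. Ugt2a3 was listed at 0 FPKM in WT replicate 1 and at 0.03 FPKM in each other WT library, which is a difference of single counts.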

How the results depend on the processing

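Leaving out 1 library at a time gave 1172 (without WT replicate 4) to 3683 (without WT replicate 2) called genes, against 2606 with all libraries; 16 to 26 called members against 21; 7 to 9 UGTs against 9; 1 to 6 GSTs against 2; 1 to 2 SULTs against 2; 7 to 9 carboxylesterases against 8; and 20 to 37 list genes against 30. The log2 fold change of Abcc4 was -0.087 to -0.013. The called members that lost their call in some of these fits were Ces2g, Ces3b, Gsta3, Sult1e1, Ugt1a6b and Ugt1a9.

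With the replicate number as a block, 141 genes, 3 members, 2 UGTs, 0 GSTs, 0 SULTs, 1 carboxylesterase and 4 list genes were called. The deviations of same-numbered libraries correlated at 0.0107, -0.0746 and -0.128 for numbers 1, 2 and 4. Libraries of different numbers correlated at -0.156 to 0.208. These values show no pairing by number but are too few and too varied to exclude it. In limma on log2(FPKM + 1) 1 GST was called, and with a filter of at least 1 FPKM 1 SULT was called; that filter left Ugt1a9, Ugt2b35 and Sult1d1 without a value. With no filter Gsta3 and Sult1e1 lost their calls.

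Values near 0 changed sign. Abcc4 was 0.018 with library size alone, 0.028 and 0.035 in limma with pseudocounts of 1 and 0.1, and 0.015 with the block. Gstk1 was 0.066 with library size alone, 0.0065 with the FPKM filter, 0.053 and 0.054 in the limma fits, and -0.055 to 0.053 with 1 library left out. Gstm2 was 0.047 with library size alone and 0.040 in both limma fits (-0.074 to 0.011 with 1 library left out), Gstm5 -0.10 with the block (-0.069 to 0.22), and Gstt3 0.049 with library size alone (-0.29 to 0.13). The cause was not tested. Of all calls 55.9% were higher with TMM, 74.1% with library size alone, 73.6% and 73.3% in the limma fits and 78.0% with the block; library size alone moved the median log2 fold change by 0.07 and left 18 members higher and 3 lower. Depth limits the members with few counts: 9 of the 17 higher members had no WT library over the filter.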

Other observations

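Of the UDP-glycosyltransferases outside the 59, Ugt3a1 was called higher along with Ugt3a2: it had 0.41, 0.84, 0.99 and 0.32 FPKM in libraries labelled Mrp4 knockout and 0.06, 0, 0 and 0.03 FPKM in WT, where its counts summed to 3 (adjusted p = 0.00443). The membrane-bound glutathione transferases of the Mgst family, which are unrelated in sequence to the cytosolic GSTs, did not pass. Mgst1 averaged 657 ± 60.1 FPKM under the Mrp4 knockout label and 769 ± 66.9 FPKM in WT (log2 fold change -0.29, adjusted p = 0.0805; called by DESeq2), Mgst2 15.2 ± 1.69 FPKM under the Mrp4 knockout label and 17.4 ± 2.97 FPKM in WT (adjusted p = 0.267), and Mgst3 215 ± 37.0 FPKM under the Mrp4 knockout label and 247 ± 45.3 FPKM in WT (adjusted p = 0.228). Of the enzymes that make or recycle glutathione, Gclc (adjusted p = 0.912), Gclm (adjusted p = 0.292) and Gsr (adjusted p = 0.0654, called by DESeq2) did not pass. Gss was called higher (log2 fold change 0.35, adjusted p = 0.0488). Its call was lost with any 1 library left out (0.29 to 0.41) and with no filter. Ugdh, which makes UDP-glucuronic acid, did not pass (adjusted p = 0.360).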
